A study of Mus musculus with 12 samples.

Results

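A set of 9 genes that mark B lymphocytes, Cd79a, Cd79b, Ms4a1, Pax5, Blnk, Ebf1, Cd22, Fcer2a and Cd74, were followed through polyadenylated RNA libraries of cultured mouse CD4+ T cells. They were found by gene symbol, and all 9 were present among 23991 gene IDs. The 12 libraries form 4 groups of 3, numbered 1 to 3 in the titles: Adcy10-/- cells with polarizing cytokines, WT cells with polarizing cytokines, Adcy10-/- cells in baseline medium and WT cells in baseline medium. Adcy10 encodes soluble adenylyl cyclase, which makes cAMP inside the cell. Both genotypes were male C57BL/6 mice aged 8 to 10 weeks, and neither the construction of the allele nor any pooling of animals is given in the sources used here. CD4+ T cells were enriched from spleens or lymph nodes by magnetic negative selection, a method that removes other cells with antibodies and leaves untouched whatever the antibodies miss. The protocol, worded alike for all 12 libraries, names stimulation for 18 hours through CD28 (antibody at 2 µg/mL) and through CD3 (antibody fixed to the plate, at 10 µg/mL). It adds IL-6 at 25 ng/mL, both IL-23 and IL-1β at 20 ng/mL, and blocking antibodies against IL-4 and against interferon-γ at 1 µg/mL. It does not say which of these were in baseline medium, nor what a replicate number marks, nor whether replicates came from separate animals, so p-values measure only the spread between these samples, which may be technical.

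The B cell antigen receptor is a membrane immunoglobulin that signals through the paired chains CD79A and CD79B, with the adaptor BLNK downstream and CD22 as a brake. The factors EBF1 and PAX5 set and hold B cell identity, and CD79A and BLNK are among their best known targets. CD20 (Ms4a1) and CD23 (Fcer2a, the low-affinity IgE receptor) are surface proteins of mature B cells. CD74, the invariant chain of MHC class II, is made by every class II-bearing cell, dendritic cells and macrophages included, and is the least B cell-restricted of the 9. In cultures of selected CD4+ T cells, transcripts of the B cell-restricted genes are commonly read as a trace of B cells left by the selection.

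Promoter sequence from RefSeq (GRCm38.p6) was at hand for 6 of the 9 genes. The pair shown, of a receptor chain and the adaptor, is the one whose windows held the most matches to the motifs below, 3 each, and it was chosen with those matches known. Each run is the 250 bases before the annotated start, 5′ to 3′ on the gene's strand, at chr7:24897247-24897496 (plus strand) for Cd79a and chr19:40994222-40994471 (minus strand) for Blnk, with capitals on matches to 4 short motifs.
Cd79a: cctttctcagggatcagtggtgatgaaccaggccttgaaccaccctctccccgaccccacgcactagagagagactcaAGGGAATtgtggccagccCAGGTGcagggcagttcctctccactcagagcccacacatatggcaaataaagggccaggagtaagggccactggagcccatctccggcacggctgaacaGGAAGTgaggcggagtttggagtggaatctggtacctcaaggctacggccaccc
Blnk: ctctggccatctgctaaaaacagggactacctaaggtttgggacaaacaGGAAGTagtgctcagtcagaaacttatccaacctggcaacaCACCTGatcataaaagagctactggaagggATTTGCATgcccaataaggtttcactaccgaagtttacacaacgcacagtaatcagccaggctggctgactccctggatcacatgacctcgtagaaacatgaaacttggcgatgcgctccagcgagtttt
The motifs were AGGGAAT (letters within the EBF1 motif), ATGCAAAT (the octamer of POU factors), CAGGTG (an E-box) and GGAAGT (an ETS core), searched on both strands with no overlap among the printed matches. Cd79a held the EBF1 letters at base -172, the E-box at -154 and the ETS core at -54 from the start. Blnk held the ETS core at -201 and, on the opposite strand, the E-box at -160 and the octamer at -130. Over all 32851 RefSeq promoter windows of 300 bases, 4.08% held the EBF1 letters, 1.74% the octamer, 20.2% the E-box and 23.8% the ETS core. In the same 250 bases the other 7 windows held fewer, with 2 in 1 window of Fcer2a, 1 each in another window of Fcer2a, 1 of Ebf1 and that of Cd22, and 0 in the last window of Fcer2a, the other of Ebf1 and that of Pax5. A match is a description of letters and not a binding site.

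The libraries were T cell libraries throughout. FPKM, a fragment count scaled for library size and transcript length, is the deposited unit, so levels of different genes can be set side by side. Cd3e, a chain of the T cell receptor complex, stood between 169.3 and 259.5 FPKM and Cd4 between 119 and 179 FPKM in all 12 libraries. Adcy10 itself stood at 0 FPKM in every library, WT included, and so gives no check of genotype. FPKM sums ran from 547870 to 594750, and 9778 to 9925 genes reached 1 FPKM per library. The files give no read counts and absolute depth is unknown. Steps between the values of low genes gave relative depths of 0.912 to 1.201 times that of WT baseline library 1. Only ratios near 1 were searched, a limit set in advance, so a larger difference in depth could not have been seen.

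All 9 B cell markers were detected, and their levels differed above all between replicate numbers. The 4 libraries numbered 1, one from each group, were low, and the 8 libraries numbered 2 and 3 were high. The 9 genes summed to between 38.2 and 64.4 FPKM in the libraries numbered 1, and to between 104.3 and 221.3 FPKM in those numbered 2 and 3, most of it Cd74. Number 1 was the lowest of 3 in all 4 groups for 9 of 9 markers, as it was for 16.2% of genes tested, and the markers vary together, so they are not separate observations. Fewer B cells and less RNA per B cell cannot be told apart in bulk RNA.

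**Figure D1:**
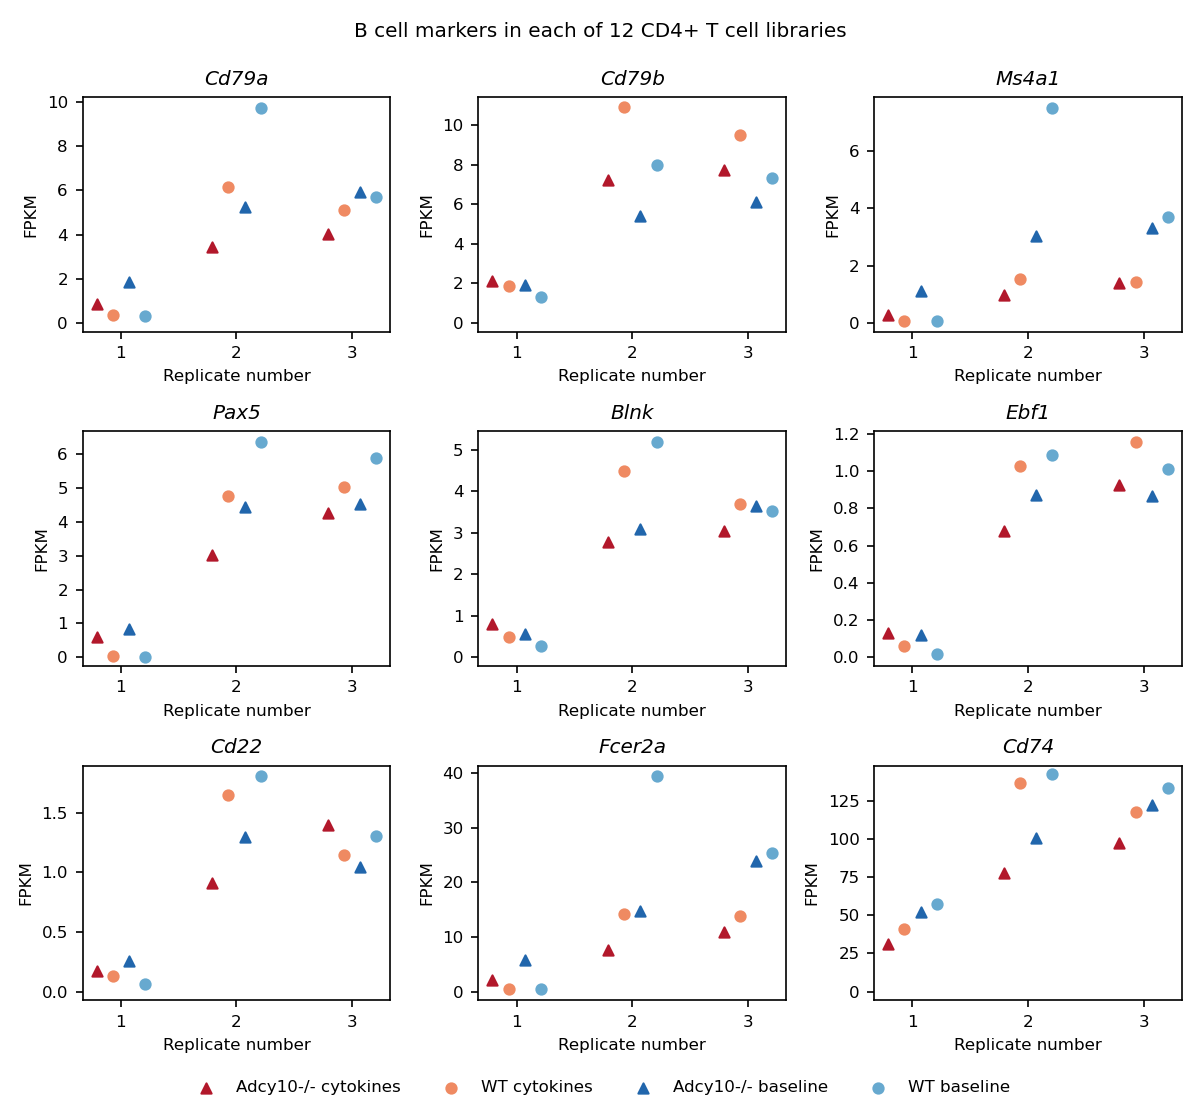
FPKM of each of the 9 B cell markers (vertical axis, linear, a scale per gene) in each of the 12 libraries, by replicate number (horizontal axis); each point is 1 library, triangles are Adcy10-/- and circles WT, red shades are cytokines and blue shades baseline medium. For 8 of 9 genes, all but Ms4a1, the 4 points at number 1 lie below all 8 others.

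Of the receptor chains, Cd79a measured 0.842 (Adcy10-/- cytokines), 0.340 (WT cytokines), 1.86 (Adcy10-/- baseline) and 0.310 FPKM (WT baseline) in the 4 libraries numbered 1. In the libraries numbered 2 and 3 it measured 3.44 and 4.03 (Adcy10-/- cytokines), 6.17 and 5.11 (WT cytokines), 5.26 and 5.93 (Adcy10-/- baseline) and 9.755 and 5.70 FPKM (WT baseline). No library numbered 1 overlapped the others, and the difference was -1.89 on the log2(FPKM + 1) scale (SE 0.22, limma moderated F test over both number terms, adjusted p = 0.00149). Cd79b, its partner chain, measured 2.12, 1.86, 1.91 and 1.29 FPKM in the libraries numbered 1, in the same order of groups. In those numbered 2 and 3 it measured 7.23 and 7.73 (Adcy10-/- cytokines), 10.9 and 9.48 (WT cytokines), 5.42 and 6.12 (Adcy10-/- baseline) and 7.99 and 7.31 FPKM (WT baseline). These also did not overlap (log2 difference -1.635, SE 0.11, adjusted p = 0.000139).

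Pax5, the factor that holds B cell identity, was close to absent from both WT libraries numbered 1. It measured 0.600 (Adcy10-/- cytokines), 0.0473 (WT cytokines), 0.822 (Adcy10-/- baseline) and 0 FPKM (WT baseline) in the libraries numbered 1. In those numbered 2 and 3 it measured 3.03 and 4.26 (Adcy10-/- cytokines), 4.78 and 5.04 (WT cytokines), 4.45 and 4.54 (Adcy10-/- baseline) and 6.36 and 5.89 FPKM (WT baseline). The log2 difference was -2.11 (SE 0.19, adjusted p = 0.000541). Ebf1, the factor that starts the B cell program, was the lowest of the 9, at 0.0149 to 0.130 FPKM in the libraries numbered 1 and 0.676 to 1.16 FPKM in the others. It passed the filter on low values (at least 1 FPKM in at least 3 libraries) through 4 libraries, all numbered 2 or 3, so its difference of -0.85 (SE 0.08, adjusted p = 0.000576) is small on a scale where 1 is added to each value. Pax5, Ms4a1 and Blnk passed that filter through 8 libraries each, Cd22 through 7, Cd79a through 9, Fcer2a through 10, and Cd79b and Cd74 through 12. Pax5, Blnk, Ebf1 and Cd22 reached 1 FPKM in libraries numbered 2 or 3 alone, so they entered the test through the libraries where they were high and had to differ. Cd79a and Ms4a1 reached it in 1 library numbered 1 and Fcer2a in 2, too few to pass the filter without the libraries where they were high.

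Fcer2a, which encodes CD23, had the largest of the 9 differences on the log2(FPKM + 1) scale. It measured 2.05 (Adcy10-/- cytokines), 0.446 (WT cytokines), 5.79 (Adcy10-/- baseline) and 0.504 FPKM (WT baseline) in the libraries numbered 1. In those numbered 2 and 3 it measured 7.655 and 10.9 (Adcy10-/- cytokines), 14.2 and 13.9 (WT cytokines), 14.8 and 23.9 (Adcy10-/- baseline) and 39.4 and 25.3 FPKM (WT baseline). The 2 sets did not overlap (log2 difference -2.775, SE 0.40, adjusted p = 0.00343). Ms4a1, which encodes CD20, measured 0.290, 0.0783, 1.13 and 0.0572 FPKM in the libraries numbered 1, in the same order of groups. In those numbered 2 and 3 it measured 0.969 and 1.40 (Adcy10-/- cytokines), 1.54 and 1.43 (WT cytokines), 3.02 and 3.33 (Adcy10-/- baseline) and 7.51 and 3.71 FPKM (WT baseline). It was the single gene of the 9 whose sets overlapped, because Adcy10-/- baseline number 1 lay above Adcy10-/- cytokines number 2 (log2 difference -1.38, SE 0.26, adjusted p = 0.00981).

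The adaptor Blnk stood at 0.280 to 0.791 FPKM in the libraries numbered 1 and at 2.79 to 5.20 FPKM in the others (log2 difference -1.61, SE 0.14, adjusted p = 0.00039). The inhibitory receptor Cd22 stood at 0.0664 to 0.256 FPKM in the libraries numbered 1 and at 0.915 to 1.81 FPKM in the others (log2 difference -0.996, SE 0.11, adjusted p = 0.000916). Cd74 was the most abundant of the 9 by far, and kept the largest share of its level in number 1. It measured 31.2 (Adcy10-/- cytokines), 40.9 (WT cytokines), 51.9 (Adcy10-/- baseline) and 57.0 FPKM (WT baseline) in the libraries numbered 1. In those numbered 2 and 3 it measured 77.6 and 97.1 (Adcy10-/- cytokines), 137 and 117 (WT cytokines), 100.4 and 122 (Adcy10-/- baseline) and 142 and 133 FPKM (WT baseline). The sets did not overlap (-1.35, SE 0.09, adjusted p = 0.000139).

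Cd79b and Cd74 reached 1 FPKM in all 4 libraries numbered 1, and both passed the test for replicate number, lower in number 1. Cd79a and Ms4a1 reached 1 FPKM in 1 library numbered 1 and Fcer2a in 2, fewer than the 3 that the filter needs. These 3, and the 4 that reached it in numbers 2 and 3 alone, were also called and lower in number 1. They passed the filter through the libraries where they were high, so their calls are no support. Those genes also add no support to the median and the other counts of all 9 by replicate number. Over all 10126 genes tested the same test called 29.8%, and 18.2% were called and lower in number 1. The median log2 difference of the 9 was -1.61, beside -0.02 over all genes tested. All 4 libraries numbered 1 lay below all 8 others for 8 of 9 markers and for 7.19% of genes tested. Within a group the libraries numbered 2 and 3 also differed, with signs that varied between groups. Each such value sets 1 library against 1 other. Number 2 minus number 3 on the log2 scale ran from -0.46 (Fcer2a) to -0.09 (Cd79b) in Adcy10-/- with cytokines and from -0.66 (Fcer2a) to 0.17 (Cd22) in Adcy10-/- at baseline. It ran from -0.09 (Ebf1) to 0.30 (Cd22) in WT with cytokines and from 0.05 (Ebf1) to 0.85 (Ms4a1) in WT at baseline. Averaged over groups it lay between -0.12 (SE 0.46, Fcer2a) and 0.15 (SE 0.26, Cd79a). Cd79b and Cd74 were called after each of the 12 libraries was left out in turn. The other markers were too, which is no support. Without both WT libraries numbered 1, an alternative chosen after seeing the data, Cd79b and Cd74 were called, beside 4.8% of genes tested. Cd79a and Fcer2a were also called there, as no support, and Ms4a1 was not (-0.86, SE 0.20, adjusted p = 0.0741).

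For each marker the share of its level kept in number 1 was larger in Adcy10-/- than in WT libraries, as a value. The mean of the 2 Adcy10-/- libraries numbered 1 was 17.5% of the mean of the 4 Adcy10-/- libraries numbered 2 and 3 for Pax5, and in WT this share was 0.428%. For Fcer2a the shares were 27.4% in Adcy10-/- and 2.05% in WT, for Ms4a1 32.5% and 1.91%, for Cd79a 29.0% and 4.86%, and for Ebf1 14.9% and 3.56%. Cd22 (18.6% in Adcy10-/-, 6.64% in WT) and Blnk (21.5% and 9.04%) lay between. Cd79b (30.4% in Adcy10-/-, 17.6% in WT) and Cd74 (41.9% and 37.0%) kept most in WT. The order of the shares ran from Pax5 to Cd74 in WT and from Ebf1 to Cd74 in Adcy10-/-. A term for this difference between genotypes, added after seeing the data, called 0 of 9 markers and 0.0593% of genes tested. The term was above 0 for all 9, with a median of 0.61, beside 0.00 over all genes. Pax5 came nearest (1.11, SE 0.16, adjusted p = 0.0504), and was called after median-ratio scaling (adjusted p = 0.0444). Fcer2a came next (2.27, SE 0.38, adjusted p = 0.117), and was called without WT baseline number 2 (1.97, adjusted p = 0.0396). With 0.1 in place of 1 added before the log, which weighs low values more, 3 of 9 were called: Pax5 (adjusted p = 0.00306), Fcer2a (0.0158) and Cd79a (0.0326).

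Other genes of B cells were counted beside the markers, against the 29.8% of all genes called and the 18.2% called and lower in number 1. Of 14 genes of B cell receptor signalling tested, 8 were called with number 1 lower and 1 with number 1 higher. They include the kinases Blk (-1.53, SE 0.10) and Syk (-1.12, SE 0.08), the adaptor Pik3ap1 (-0.92, SE 0.06) and the phospholipase Plcg2 (-1.245, SE 0.08). The called genes of that list also include Cd81, whose -0.02 (SE 0.04) was called through the difference between numbers 2 and 3. Of 14 other surface and lineage genes tested, 9 were lower in number 1 and 1 higher, among the lower the BAFF receptor gene Tnfrsf13c (-2.27, SE 0.17), Cd40 (-1.67, SE 0.08), Ly86 (-1.42, SE 0.10) and Cd24a (-0.54, SE 0.03). Of 10 B cell factors, 4 were lower, namely Spib (-0.84, SE 0.11), Spi1 (-0.67, SE 0.09), Irf8 (-0.62, SE 0.06) and Bcl11a (-0.56, SE 0.07), and 1 was higher. Blk, Ly86, Spib and Bcl11a stayed under 1 FPKM in every library numbered 1, as did Lyn, Bank1 and Fcrl1 of the same lists. They entered the test through numbers 2 and 3, where they were high, and add no support to these counts. Btk (of the receptor signalling list) and Pik3ap1 reached 1 FPKM in 9 libraries and Syk and Tnfrsf13c in 10, among them all 8 numbered 2 and 3. Too few libraries numbered 1 reached it for the filter, so these genes add no support either. Cd40, Syk and Spi1 are also made by myeloid cells, and Irf8 by activated T cells as well.

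Class II genes followed in part, beside the same 29.8% of all genes called and 18.2% called and lower in number 1. Of 11 tested, 7 were lower in number 1 and 1 was higher, with a median log2 difference of -0.54. H2-Aa (-1.59, SE 0.12), H2-Ab1 (-1.26, SE 0.10) and H2-Eb1 (-1.14, SE 0.09), which encode the presenting chains, and the thiol reductase gene Ifi30 (-0.54, SE 0.03) were called. H2-Aa kept 30.5% in Adcy10-/- and 33.6% in WT, and H2-Ab1 33.6% in Adcy10-/- and 47.3% in WT. H2-Eb1 kept 37.1% in Adcy10-/- and 48.4% in WT, and Cd74 41.9% and 37.0%. As values, these class II chain genes thus kept more in WT, whereas Cd74 and the other markers kept more in Adcy10-/-. Of 5 plasma cell genes, 1 was called, the chaperone gene Mzb1 (-2.205, SE 0.22), which B cells also express.

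**Figure D2:**
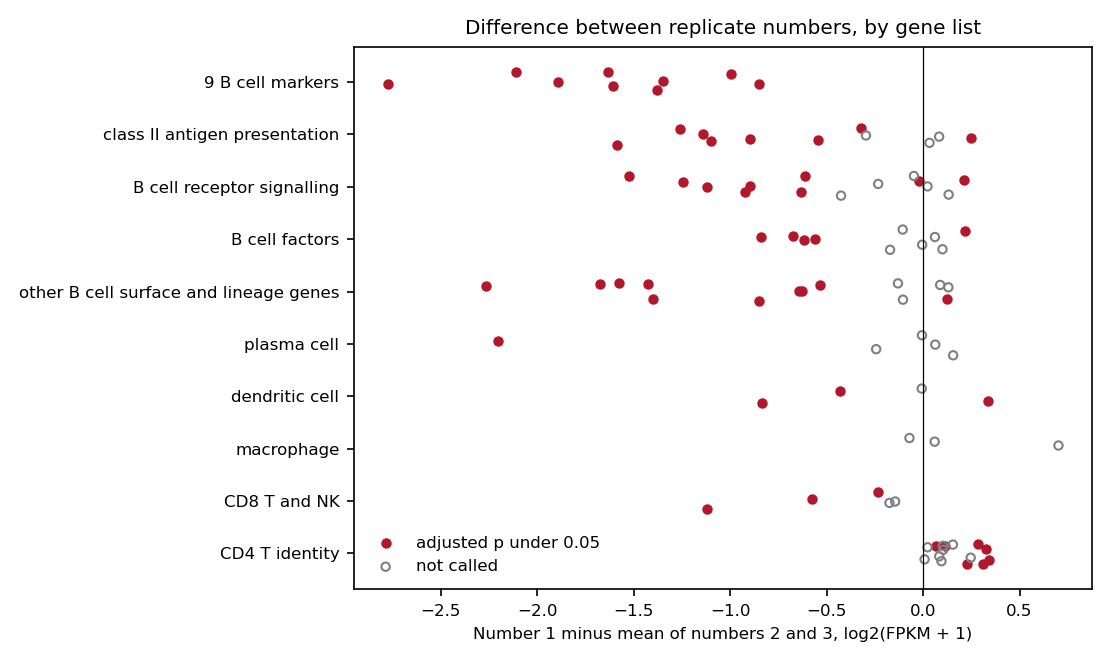
Difference between libraries numbered 1 and the mean of numbers 2 and 3, on the log2(FPKM + 1) scale (horizontal axis), for each tested gene of the 9 markers and of 9 further lists (rows); each point is 1 gene from a fit over 12 libraries, filled where the adjusted p of the F test over both number terms is under 0.05, with small vertical offsets for legibility. The 9 markers run from -2.775 (Fcer2a) to -0.85 (Ebf1), and the 15 CD4 T identity genes lie at or above 0.

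Markers of other cells were set beside these, against the same 29.8% of all genes called and 18.2% called and lower in number 1. All 15 CD4 T cell identity genes lay above 0 in the number comparison, 7 of them called, with a median of 0.12. Cd3e averaged 245 FPKM in Adcy10-/- libraries numbered 1 and 195 FPKM in the Adcy10-/- others, and 233 FPKM in WT libraries numbered 1 and 187 FPKM in the WT others (log2 difference 0.33, SE 0.04, adjusted p = 0.00214). Of 5 CD8 T and NK genes tested, 3 were lower, namely Cd8a (-1.12, SE 0.12), Gzma (-0.58, SE 0.16) and Nkg7 (-0.23, SE 0.06). Cd8a kept 18.4% in Adcy10-/- and 4.06% in WT, and the list summed to 24.6 to 34.4 FPKM in number 1 and 30.3 to 43.5 FPKM in the others. Of 4 dendritic cell genes tested, Batf3 (-0.83, SE 0.14) and Zbtb46 (-0.43, SE 0.08) were lower. Ccr7, which T cells also make, was higher (0.34, SE 0.04). Cd8a and Zbtb46 stayed under 1 FPKM in every library numbered 1 and entered the test through the others, so their calls are no support. Gzma reached 1 FPKM in 9 libraries, too few of them numbered 1 to pass the filter by those alone, and its call is no support either. Of 10 dendritic cell genes listed, 6 stayed under 1 FPKM in all 12 libraries. Among them were Itgax and Flt3, and Clec9a and Siglech, which had a median of 0. In the same list Cst3 stood at 64.7 to 90.2 FPKM, Ccr7 at 372 to 649 FPKM and Batf3 at 1.29 to 6.62 FPKM. Cst3 was not called (-0.01, SE 0.05). Of 3 macrophage genes tested 0 were called, but Lyz2, the lysozyme gene, stood at 93.5 FPKM in WT cytokines number 1 and 60.9 FPKM in WT baseline number 1, and at 11.8 to 36.8 FPKM in the other 10 libraries. The macrophage list summed to 16.1 to 107 FPKM in number 1 and 18.1 to 46.9 FPKM in the others. The part of these cells in the levels of the markers was not tested.

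Across the 12 libraries the 9 markers varied together. Pearson correlations of log2 values between pairs of markers had a median of 0.922 over 36 pairs, from 0.673 (Cd79b with Ms4a1) to 0.985. Within the 8 libraries numbered 2 and 3 they ran from -0.311, again Cd79b with Ms4a1, to 0.946, with a median of 0.701. The genes outside the set most like the mean of the 9 over 12 libraries were Swap70 (r = 0.993), Ebi3 (0.988), Mreg and Wdfy4 (0.985 each), Bcar3 and Prr5 (0.980 each), Tnfrsf13c (0.977), Plcg2 (0.976), Scd1 (0.975) and Ly86 (0.974). After group means were removed, Swap70 again came first (0.997), followed by Ebi3, Spib, Wdfy4, Tnfrsf13c, Cd83, Mreg, Blk, Irf5 and Scd1 (0.988 to 0.994). These points share libraries, and with them the step between number 1 and the rest.

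Whether polarizing cytokines changed the markers was asked next. Without regard to replicate number, 0 of 9 markers were called in Adcy10-/- cells, beside 4.27% of genes tested, 0 of 9 in WT cells, beside 4.93%, and 0 of 9 averaged over genotypes, beside 13.2%. No marker reached an unadjusted p of 0.05 in an exact two-sided permutation test over 6 against 6 libraries either. The averaged log2 changes had a median of -0.19, beside -0.02 over all genes, with the lowest for Fcer2a (-0.89, SE 0.86) and Ms4a1 (-0.88, SE 0.45) and the highest for Cd79b (0.30, SE 0.47). With 1 library left out, Fcer2a ran from -1.63 to -0.33 and Ms4a1 from -1.31 to -0.56. These errors include the difference between replicate numbers. Without WT baseline number 1, Ms4a1 was called (-1.31, adjusted p = 0.0156).

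Within pairs of the same genotype and number, Cd79b, Fcer2a and Cd74 went one way in 6 of 6 pairs, 3 of 9 markers beside 29.6% of genes tested, a share near that of the markers. All 6 pairs were above 0 for 1 of 9 markers, beside 13.2% of genes, and below 0 for 2 of 9, beside 16.4%. Cd79b was higher with cytokines by 0.10 to 0.41 (log2), Fcer2a was lower by values from -1.41 to -0.06, and Cd74 by values from -0.72 to -0.06. Ms4a1 was lower in 5 of 6 pairs, the exception being WT number 1, where both libraries were under 0.1 FPKM (0.0783 with cytokines and 0.0572 at baseline). Cd79a and Pax5 were also lower in 5 of 6 pairs, and Blnk, Ebf1 and Cd22 were mixed. With replicate number as a block in limma, Cd74 was called in Adcy10-/- cells (-0.47, SE 0.12, adjusted p = 0.035), 1 of 9 markers beside 10.7% of genes, and 0 of 9 in WT cells, beside 14.8%. Averaged over genotypes the block called 2 of 9, Cd74 (-0.35, SE 0.09, adjusted p = 0.0136) and Ms4a1 (-0.88, SE 0.24, adjusted p = 0.024), beside 25.9% of genes, a share near that of the markers. Cd79b (0.30, SE 0.11, adjusted p = 0.0594) and Fcer2a (-0.89, SE 0.38, adjusted p = 0.11) missed the threshold there. In the exact sign test over the 6 pairs, Cd79b, Fcer2a and Cd74 each gave p = 0.03125, the smallest that 6 pairs allow.

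**Figure D3:**
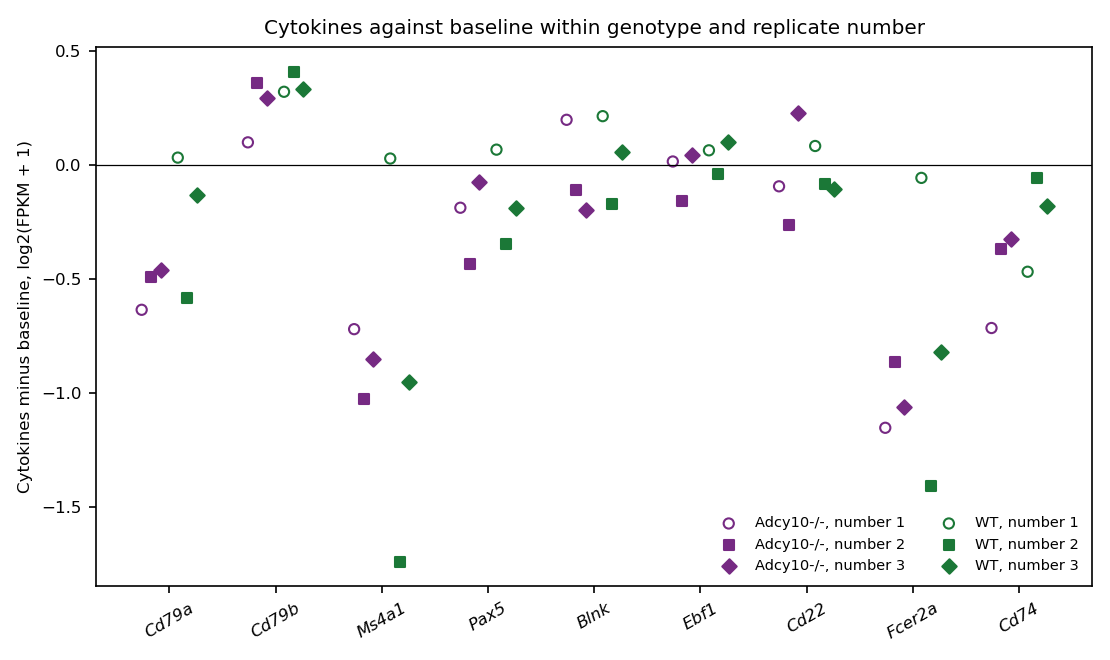
Cytokines minus baseline within each pair of libraries of the same genotype and replicate number, on the log2(FPKM + 1) scale (vertical axis), for each of the 9 markers (horizontal axis); each point is 1 pair, open circles are number 1, filled squares number 2 and filled diamonds number 3, purple for Adcy10-/- and green for WT. All 6 points of Cd79b lie above 0, and all 6 of Fcer2a and of Cd74 lie below 0.

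In the 8 libraries numbered 2 and 3, where the markers were high, 3 genes differed between media. There Ms4a1 stood at 0.969 and 1.40 FPKM (Adcy10-/-) and 1.54 and 1.43 FPKM (WT) with cytokines, against 3.02 and 3.33 FPKM (Adcy10-/-) and 7.51 and 3.71 FPKM (WT) at baseline. All 4 cytokine libraries lay below all 4 baseline libraries, and Ms4a1 fell (log2 change -1.14, SE 0.17, limma adjusted p = 0.00484). Fcer2a also fell without overlap (-1.04, SE 0.18, adjusted p = 0.00966), at 7.655 to 14.2 FPKM with cytokines and 14.8 to 39.4 FPKM at baseline. Cd79b rose (0.35, SE 0.07, adjusted p = 0.0171), at 7.23 to 10.9 FPKM with cytokines and 5.42 to 7.99 FPKM at baseline, and the media overlapped, with WT baseline number 2 and number 3 above Adcy10-/- cytokines number 2. These were 3 of 9 markers called, beside 8.92% of genes tested. Cd79a (-0.42, SE 0.14, adjusted p = 0.11), Pax5 (-0.26, SE 0.09, 0.112), Cd74 (-0.23, SE 0.09, 0.158), Blnk (-0.11, SE 0.11, 0.609), Cd22 (-0.06, SE 0.12, 0.82) and Ebf1 (-0.01, SE 0.08, 0.943) missed the threshold. Within genotypes, 0 of 9 markers were called in Adcy10-/- cells, beside 2.02% of genes, and 1 of 9 in WT cells, Ms4a1 (-1.35, SE 0.24, adjusted p = 0.0231), beside 3.49%. The exact permutation test over 4 against 4 libraries gave p = 0.0286 for Ms4a1 and for Fcer2a, the smallest that design allows. The same averaged comparison called 0 of 9 markers without the libraries numbered 2, beside 4.48% of genes, and 0 of 9 without those numbered 3, beside 5.09%.

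Some other genes of the B cell and antigen presentation lists changed with cytokines too, in the averaged comparison over 12 libraries. Of 11 class II genes tested 1 rose and 2 fell, and of 14 receptor signalling genes 1 rose and 1 fell. Of 10 B cell factors 1 rose and 2 fell, and of 14 other surface and lineage genes 1 rose and 0 fell. Over all genes tested 13.2% were called. Ctss, a protease gene of the class II pathway, averaged 48.1 ± 1.1 FPKM with cytokines and 71.0 ± 7.2 FPKM at baseline in Adcy10-/- cells, and 50.4 ± 2.5 FPKM with cytokines and 70.4 ± 7.8 FPKM at baseline in WT cells (SD, n = 3 each). Ctss fell (-0.51, SE 0.06, limma adjusted p = 0.000305), H2-Oa fell (-0.44, SE 0.13, 0.045) and H2-DMa rose (0.40, SE 0.10, 0.0278). Irf8 fell (-0.73, SE 0.18, adjusted p = 0.0214), Pou2f2 fell (-0.47, SE 0.10, 0.0101) and Bcl6 rose (0.43, SE 0.08, 0.00359). Of receptor signalling genes, Vav3 fell (-0.74, SE 0.09, 0.000322) and Cd81 rose (0.22, SE 0.06, 0.0407). Cd24a rose (1.03, SE 0.16, 0.00151). Of 5 plasma cell genes tested, 3 rose, namely Xbp1 (0.48, SE 0.08, 0.00275), Prdm1 (0.59, SE 0.12, 0.00768) and Igj (0.87, SE 0.24, 0.0338), beside the 13.2% of all genes called. Without the libraries numbered 1, H2-Oa (-0.30, adjusted p = 0.134), H2-DMa (0.28, 0.0573), Cd81 (0.19, 0.223) and Igj (0.87, 0.156) were no longer called, and the other 8 genes named here were. Activated T cells make many of these, Xbp1, Prdm1, Bcl6 and Irf8 among them.

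Adcy10-/- was compared with WT last. In each medium limma called 0 genes of 10126 (0%) and thus 0 of 9 markers, and the interaction with medium likewise called 0. At an unadjusted p under 0.05 stood 118 genes at baseline, 202 with cytokines and 112 for the interaction, and the interaction terms of the markers ran from -0.30 (SE 1.13, Cd79a) to 0.02 (SE 0.90, Ms4a1). Within number pairs, Adcy10-/- lay above WT in both pairs numbered 1 for 8 of 9 markers, all but Cd74, beside 23.8% of genes tested. It lay below WT in all 4 pairs numbered 2 and 3 for 6 of 9, beside 8.8%, and both held for 5 of 9, beside 2.42%. Cd74 was below WT in all 6 pairs, and Cd79a, Blnk and Cd22 each had 1 pair of the 4 above WT. The term for the difference between genotypes in the number 1 effect, given above, called 0 of 9. Fcer2a gave the widest contrast, with 2.05 FPKM in Adcy10-/- and 0.446 FPKM in WT (cytokines, number 1) and 5.79 FPKM in Adcy10-/- and 0.504 FPKM in WT (baseline, number 1). In number 2 it gave 7.655 FPKM in Adcy10-/- and 14.2 FPKM in WT with cytokines, and 14.8 FPKM in Adcy10-/- and 39.4 FPKM in WT at baseline. In number 3 the gap was smaller, with 10.9 FPKM in Adcy10-/- and 13.9 FPKM in WT with cytokines, and 23.9 FPKM in Adcy10-/- and 25.3 FPKM in WT at baseline. Without the libraries numbered 1, all 9 markers lay below 0 in both media, with a median of -0.38 with cytokines, beside -0.02 over all genes, and -0.35 at baseline, beside 0.00. None of the 9 was called there, beside 0.0198% of genes with cytokines, 0% at baseline and 0.00988% for the interaction.

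**Figure D4:**
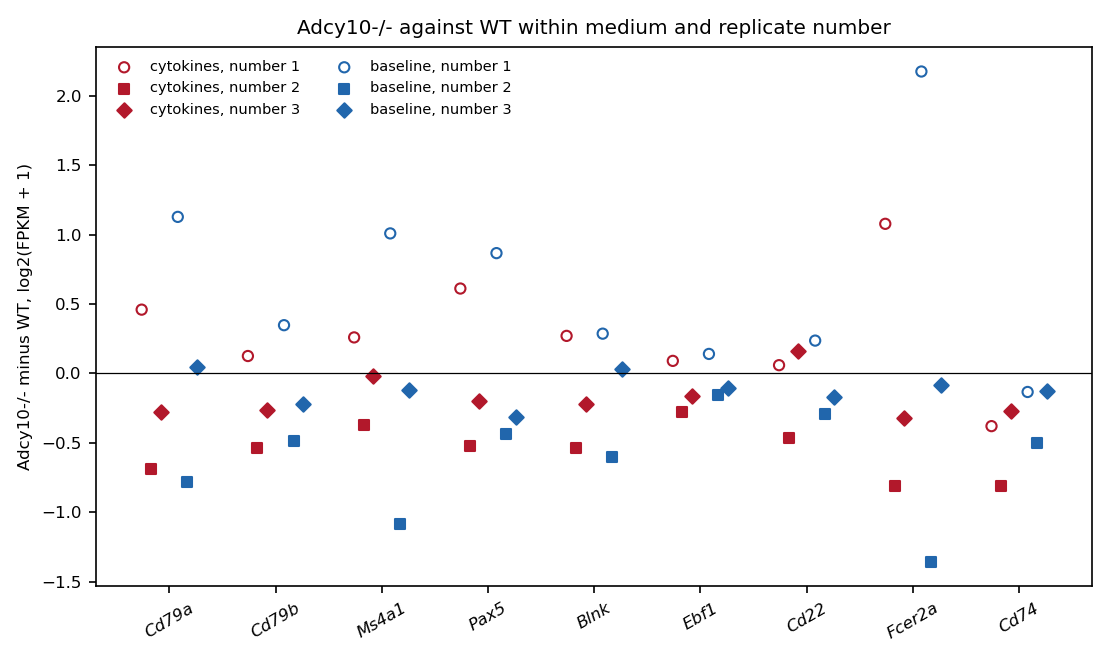
Adcy10-/- minus WT within each pair of libraries of the same medium and replicate number, on the log2(FPKM + 1) scale (vertical axis), for each of the 9 markers (horizontal axis); each point is 1 pair, open circles are number 1, filled squares number 2 and filled diamonds number 3, red for cytokines and blue for baseline medium. The number 1 points lie above 0 for all genes but Cd74, and most of the others lie below 0, down to -1.36 for Fcer2a at baseline number 2.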

How the data were processed

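The authors deposited 1 FPKM value per entry and library. The submitters' processing notes name mm9, STAR 2.4.0f1, SAMtools 0.1.19, Cufflinks and HTSeq, the last 2 with no version. FPKM carries no counts, so depth limits precision by an unknown amount. Each file held 24488 entries for 23991 gene IDs. For the 258 IDs with repeated entries (755 in all), FPKM was added up. Values were taken as log2(FPKM + 1), which understates changes of low genes, and tests covered the 10126 of 16728 genes above 0 that reached 1 FPKM in 3 or more libraries. In R 4.3.3, limma 3.58.1 (trend, empirical Bayes) fitted 4 group means, with Benjamini-Hochberg adjustment over all genes tested, a threshold of 0.05 and moderated SE. The number comparison added replicate number and used the F test over both number terms. Data were handled with the R package data.table (version 1.17.8), Python 3.11.15, numpy 2.4.6 and pandas 2.3.3, and drawn with matplotlib 3.10.9.

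The 9 markers, the 9 further gene lists and the tests were chosen with earlier results of these data known. Genes named besides the markers are, per list, up to 4 with the smallest p for replicate number and for the averaged cytokine effect, and the 10 most like the mean of the markers; Itgax, Flt3, Clec9a and Siglech were named after their values were seen. Of 126 symbols listed, 118 were present. Immunoglobulin constant region genes are not analysed here, and some items are not reported here. Residuals correlated at 0.294 to 0.536 between media within a number and genotype (6 pairs), so the block is given beside the cytokine effects. Those of the same number and medium but other genotype correlated at 0.0736 to 0.523. Alternatives were another pseudocount, no filter, median-ratio scaling, the block, each library left out, and each number left out. On simulated data for 10126 genes, 50 were changed at each size. For the averaged cytokine effect 2-fold changes were recovered at 94%, with 7.21% false calls. For replicate number the rates were 98% and 6.70%. These rates cannot be carried over to the markers, whose SE for the averaged cytokine effect ran from 0.25 (Ebf1) to 0.86 (Fcer2a). The 0 of 9 calls over 12 libraries thus do not show that a 2-fold change was absent.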

Additional observations from a re-analysis of the deposited data

Results flagged for a closer look

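The number 1 effect differed between genotypes in a limma interaction term for Lyz2, the lysozyme gene of myeloid cells. Number 1 minus the others was -0.26 (SE 0.16) in Adcy10-/- and 1.66 (SE 0.16) in WT, a difference of -1.91 (SE 0.22, adjusted p = 0.0321). With a library left out, Lyz2 was called in 4 of 12 fits (adjusted p 0.0225 to 0.198, difference -2.05 to -1.80). The term was added after the values were seen.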

How the results depend on the processing

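The replicate number result held for 9 of 9 markers with 0.1 added, with no filter and after median-ratio scaling. It also held in all 12 fits that left out a library. In the fits with the filter, all markers but Cd79b and Cd74 are no support, for they passed it through numbers 2 and 3. Genes called ran from 1601 (without WT baseline replicate 1) to 3043, against 3015. They numbered 1989 without Adcy10-/- baseline replicate 1 and 486 without both WT libraries numbered 1. The replicate block raised genes called for the cytokine effect to 1086 in Adcy10-/- (432 without it), 1502 in WT (499) and 2625 averaged (1341), and markers to 1, 0 and 2; it changed no genotype or interaction count from 0, with 375 genes (baseline), 515 (cytokines) and 335 (interaction) at an unadjusted p under 0.05. Without number 1, genes called were 205 in Adcy10-/-, 2 for genotype with cytokines and 1 for the interaction, and markers 1 in WT and 3 averaged. Without number 2 they were 103 in Adcy10-/-, 27 in WT and 454 averaged; without number 3 they were 66, 93 and 515, with 2 for genotype with cytokines and 2 for the interaction, from fewer libraries. Leaving out 1 library gave 196 to 465 genes in Adcy10-/-, with 196 (number 1), 283 (number 2) and 262 (number 3) without a cytokine library of that genotype, and 198 (number 1) and 210 (number 3) without a baseline one. In WT it gave 164 to 536 genes, with 257 (number 1) and 324 (number 2) without a cytokine library of WT, and 164 without WT baseline number 2. It gave 910 to 1300 genes and 0 to 1 markers averaged, and 0 to 1 genes for genotype with cytokines and for the interaction. In permutation tests over samples, 0 markers passed over all 12 libraries, 2 without number 1 and 3 within number pairs (replicate block).

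Averaged cytokine changes over 12 libraries, uncalled for these genes, crossed 0 in fits that left out a library: Cd79a from -0.83 to 0.0042, Cd79b from -0.016 to 0.63, Pax5 from -0.67 to 0.22, Blnk from -0.34 to 0.29, Ebf1 from -0.16 to 0.17 and Cd22 from -0.25 to 0.14. Cd74 ran from -0.56 to -0.08 there. Blnk, at 0.00, was 0.087 with 0.1 added, 0.0051 after scaling, 0.067 without number 2 and 0.032 without number 3. Ebf1 was -0.014 without number 1 and -0.030 without number 3, and Cd22 was 0.028 without number 2. The difference between genotypes in the number 1 effect called 6 genes and 0 markers, against 15 and 3 with 0.1 added, 13 and 1 after scaling, 1 gene with no filter, and 0 to 6 genes and 0 to 1 markers with a library left out, when Cd74 ran from -0.015 to 0.35. The cause of these changes was not tested. Scaling moved the median of all genes by 0.004 to 0.016 (log2). The alternative without both WT libraries and the comparison of number 1 effects between genotypes were chosen after seeing the data.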
